A study of Mus musculus with 3 samples.

Results

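Replication-dependent histone genes encode the bulk of the histone protein that packages newly copied DNA. They were taken here as every gene with a symbol from Hist1h to Hist4h and at least 1 protein-coding transcript, which gave 67 genes of 55536 annotated genes and of 22028 protein-coding genes. The remaining 3 matching symbols, Hist1h2aj, Hist1h2al and Hist3h2bb-ps, have no protein-coding transcript and were left out. By cluster, 54 of the genes lie in Hist1 on chromosome 13, 10 in Hist2 on chromosome 3, 2 in Hist3 on chromosome 11 and 1 in Hist4 on chromosome 6. By protein, 6 encode the linker histone H1, and 18, 18, 12 and 13 encode the core histones H2A, H2B, H3 and H4.

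The samples were 3 libraries of RNA from the chromatin fraction of primary macrophages grown from bone marrow of C57BL/6J mice. All cells had received 100 ng/ml lipid A, the endotoxin component that activates the receptor TLR4, for 15 min, so that the samples analysed here form 1 group without untreated cells. The labels call the libraries biological replicates from separate biosamples and give them the same donor record. The labels give no age or sex, and the libraries were started from 1 µg, 250 ng and 500 ng of RNA in replicates 1, 2 and 3. RNA was depleted of ribosomal RNA and not selected for poly(A), so transcripts without a tail could be read. Expected counts summed to 10974934, 21376404 and 14376665, and the histone genes held 1164, 3669 and 2590 of them. Levels below are in TPM, a transcript's read count per length scaled to sum to 1000000 within a library. Of the macrophage markers listed for the label check, 10 of 10 had at least 1 TPM in every library, while the T and NK cell, B cell, neutrophil, erythroid and stromal lists had 0 such genes and sums of at most 1.17 TPM. These are gene-table values: the second deposited quantification gave the T cell gene Cd3d a mean of 16.1 ± 4.35 TPM (SD, n = 3), against 0.00667 TPM in the gene table.

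Most of these genes have no intron and are transcribed in S phase, when the coactivator Npat is phosphorylated by cyclin E and Cdk2. Their mRNA usually ends after a short stem-loop in place of a poly(A) tail: the protein Slbp binds the loop and the U7 ribonucleoprotein guides the cut. Replication-independent histones such as H3.3 come from genes outside these clusters, mostly with introns and polyadenylated mRNA, and are made throughout the cell cycle. Chromatin-bound RNA is rich in transcripts that are still being made. In the annotation, 63 of the 67 main transcript models had 1 exon and 4 had 2, with a median length of 534 nt and a range of 312 to 7425 nt.

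The stem-loop was read from the annotated transcripts to check the gene group against its defining feature. The search was for GG, any 3 bases, TTNTNA, any 3 bases and CC on the transcript strand, with at least 5 of 6 stem pairs. A match stood 21 to 58 nt after the stop codon in 46 of the 52 histone genes whose model holds at least 16 nt there, which is 88.5%. Among all 20981 protein-coding genes with that much sequence, 146 held a match, which is 0.696%. The other 15 histone models end within 16 nt of the stop codon, so no loop could be seen in them. The windows below show how the 16 nt loop element varies between the genes described later, with the element in capitals and up to 5 flanking bases on each side.
Hist3h2a: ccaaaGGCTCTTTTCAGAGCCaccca
Hist2h2ac: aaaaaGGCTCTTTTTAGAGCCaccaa
Hist1h1c: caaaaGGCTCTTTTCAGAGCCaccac
Hist1h3e: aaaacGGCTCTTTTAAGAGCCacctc
Hist1h4m: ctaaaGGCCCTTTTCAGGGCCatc
Hist1h4i: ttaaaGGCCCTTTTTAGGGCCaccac
Hist1h4b: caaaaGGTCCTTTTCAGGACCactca

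The form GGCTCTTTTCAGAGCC was shared by 26 genes of types H1, H2A, H2B and H3. The form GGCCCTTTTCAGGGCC, in which 1 stem pair differs, was held by 7 genes and all of them encode H4. Hist2h2ac was the sole gene with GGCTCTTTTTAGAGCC. The 46 genes with a loop held 82.6 ± 3.43% of the summed histone TPM (SD, n = 3). The 15 genes with under 16 nt after the stop codon held 10.2 ± 2.28%, and the 6 genes with at least 16 nt and no match held 7.21 ± 1.24%. Those 6 are Hist2h3b, Hist1h2bc, Hist1h1a, Hist2h2be, Hist1h2bq and Hist1h2br. The models of Hist2h3b and Hist1h1a hold just 37 and 48 nt after the stop codon, so a loop that starts further on would be missed in them.

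As a group, these genes were read at low level, yet few were silent. In the gene table, 27 of the 67 (40.3%) had at least 1 TPM in all 3 libraries, against 42.4% of all protein-coding genes. Only 3, Hist1h3b and the testis-type genes Hist1h2ba and Hist1h2aa, had no count in any library, which is 4.48% against a background of 30.2%. At the upper end, 4 reached a mean of 10 TPM, which is 5.97% against 21.5%. The median histone gene stood at 0.59, 1.6 and 1.99 TPM in replicates 1, 2 and 3, and the median protein-coding gene at 0.58, 0.37 and 0.68 TPM. Replicate 1, the library with the fewest counts, had 16 histone genes at 0, against 5 in replicate 2 and 11 in replicate 3. For a transcript of 0.5 kb effective length, 3 counts correspond to 0.441, 0.189 and 0.383 TPM, so levels under those values were not resolved. At 0.25 kb the values are 0.883, 0.379 and 0.766 TPM. The 520 nt Hist2h2ac, close to the median model of 534 nt, had effective lengths of 317, 280 and 276 nt. The replicate 1 median of 0.59 TPM lies between the limits for 0.5 and 0.25 kb. These limits cover counting error only.

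Summed over all members, the level was 96.98, 205.98 and 228.44 TPM in replicates 1, 2 and 3, a mean of 177 ± 70.3 TPM (SD, n = 3). Hist1 held 61.4 ± 7.01% of that sum, Hist2 25.3 ± 3.97%, Hist3 13 ± 7.29% and Hist4 0.361 ± 0.0166%. The sum was uneven among genes: the highest 4 held 37.1 ± 4.2% of it and the highest 12 held 62.5 ± 2.82%. By type, H2A genes gave 38.9 ± 4.38%, H4 genes 28.9 ± 3.28%, H2B genes 14.4 ± 2.43%, H3 genes 9.28 ± 2.78% and H1 genes 8.53 ± 1.4%. H2A stood above H4 in each library, with 41.8%, 33.9% and 41% for H2A and 27.4%, 32.7% and 26.7% for H4. In the gene table that lead rested on 1 gene, Hist3h2a: without it, H2A held 29.8% and H4 33.2% of the sum. In the second deposited quantification, H2A without Hist3h2a summed to 27.5, 71.1 and 60.7 TPM and H4 to 31.2, 55.3 and 53.2 TPM, so that H2A still led in replicates 2 and 3.

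**Figure D1:**
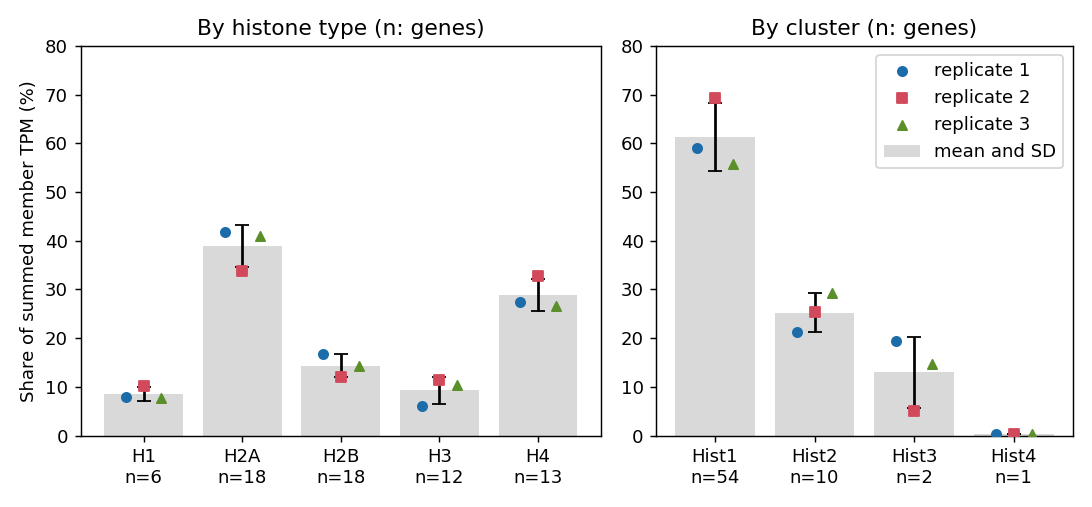
Share of the summed TPM of the 67 histone genes (y axis, %) by histone type (left) and by cluster (right), where grey bars are means, black bars are SDs and coloured points are the 3 libraries. H2A and H4 hold the largest shares by type, and the Hist3 share in replicate 2 (5.05%) lies below those in replicates 1 and 3 (19.3% and 14.7%).

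Hist3h2a, the single H2A gene of the Hist3 cluster, had the highest mean level in the gene table. It was read at 18.58, 10.32 and 33.58 TPM from 491, 622 and 1000 expected counts, a mean of 20.8 ± 11.8 TPM (SD, n = 3). Replicate 3 was highest and replicate 2 lowest, and in replicate 2 it stood below Hist1h4m, Hist2h2ac, Hist2h2aa2 and Hist1h1c. The gene lies on the plus strand at chr11:58954685-58956830 (mm10) and its 2146 nt model is 1 exon. Its loop starts 41 nt after the stop codon, and 1643 nt of annotated sequence follow the loop. That makes it a model far longer than a message that ends at its loop. It starts at the same base as the 7-exon Trim17, a ubiquitin ligase gene on the same strand, and a first exon of Trim17 covers 58954685 to 58955392. Because of that overlap, 32.1% of its 31-mers (all stretches of 31 nt) occur in another gene, while 3.31% occur in another histone gene. The Trim17 isoform that starts there was listed at 0 counts in each library of the gene table's quantification, and the isoform that starts further on at 287, 233 and 311 counts. In the second deposited quantification Hist3h2a stood at 19.3, 9.16 and 29.8 TPM and the overlapping Trim17 isoform at 0.582, 0.235 and 0.483 TPM. In the second quantification Hist2h2ac had the higher mean, at 20 ± 9.03 TPM beside 19.4 ± 10.3 TPM for Hist3h2a (SD, n = 3). Both quantifications assigned more to Hist3h2a than to that Trim17 isoform in each library, but both rest on the same reads and annotation. Hist3h2a runs on to 58956830, past the end of that Trim17 exon. Unspliced Trim17 RNA there would match the Hist3h2a model and not the spliced Trim17 isoform, and its part in the Hist3h2a level was not tested. An annotated miRNA gene, Gm44313, lies within it on the opposite strand and held at most 1.71 counts. The strand setting of the counting is not given in the sources used here, so reads of a gene and of its opposite-strand partner cannot be told apart. The other Hist3 gene, the H2B gene Hist3h2ba, was read at 0.18, 0.08 and 0 TPM.

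**Figure D2:**
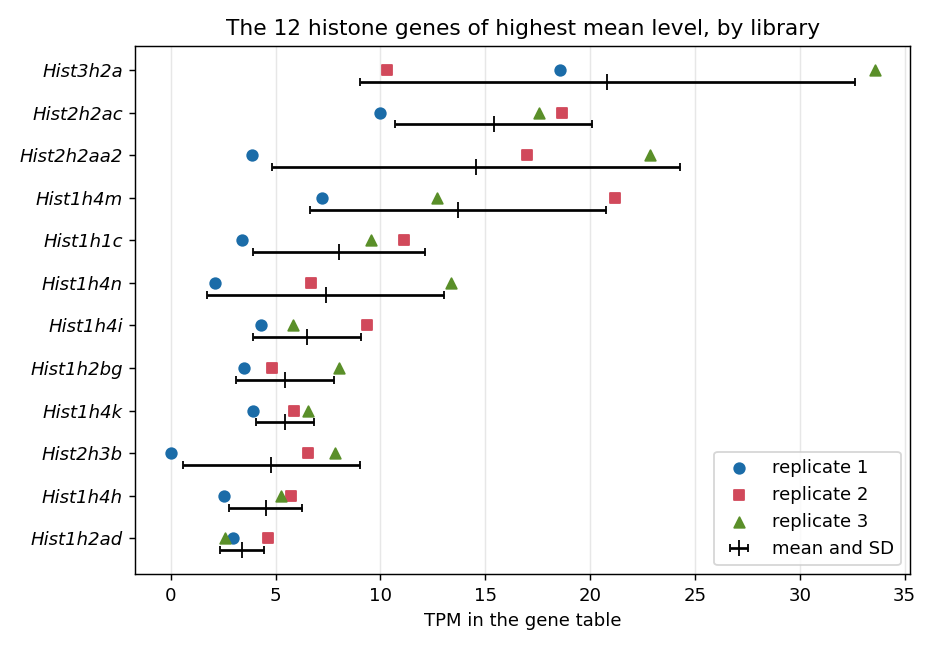
TPM (x axis) of the 12 histone genes with the highest mean, with 1 coloured point per library and a black bar for the mean and SD. Replicate 1 is the lowest of the 3 points in every row except those of Hist3h2a and Hist1h2ad, and it is at 0 for Hist2h3b.

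Among the other H2A genes, Hist2 led. Hist2h2ac, a canonical H2A gene, was read at 9.99, 18.65 and 17.55 TPM, a mean of 15.4 ± 4.71 TPM (SD, n = 3). Replicate 1 was the low library. Hist2h2aa2 stood at 3.86, 16.97 and 22.86 TPM, also with replicate 1 lowest. All of its 31-mers occur in another histone gene, and its twin Hist2h2aa1, which encodes the same protein, was assigned 0, 1.59 and 0.95 TPM, so the pair is better read as a sum of 3.86, 18.56 and 23.81 TPM. An antisense gene, Gm20632, overlaps Hist2h2aa2 and had 1.79, 1.54 and 2.6 TPM. Hist2h2aa1 is overlapped by Gm20634 on the same strand, at 3.25, 3.65 and 8.94 TPM. The antisense gene Gm20633 also overlaps Hist2h2aa1, at 1.61, 0.76 and 2.34 TPM. The part of these overlapping genes in the level of the pair was not tested. In Hist1, by contrast, 13 H2A genes together gave 14.2 ± 6.35 TPM, less than Hist2h2ac alone in its mean. Of those, 9 encode 1 identical protein and summed to 7.24, 16.26 and 14.24 TPM. Hist1h2ad was the highest of them at 2.98, 4.62 and 2.61 TPM.

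The 13 H4 genes encode 1 identical protein, so they were summed as the chromatin RNA level of H4 genes. The sum was 26.57, 67.32 and 60.92 TPM, a mean of 51.6 ± 21.9 TPM (SD, n = 3). Replicate 1 was the lowest library. The 13 genes contributed unequally. Hist1h4m was read at 7.22, 21.2 and 12.69 TPM, Hist1h4n at 2.13, 6.7 and 13.37 TPM, and Hist1h4i at 4.32, 9.37 and 5.81 TPM. The order of Hist1h4m and Hist1h4n changed in replicate 3, and 91.7% and 87.5% of their 31-mers occur in another member. Hist1h4i had 33.6% of its 31-mers in common, so its level is better separated. Hist1h4k followed at 3.91, 5.89 and 6.56 TPM from 6.22, 16.9 and 9.04 counts on a 312 nt model that ends at its stop codon. Hist1h4h stood at 2.55, 5.75 and 5.28 TPM. Outside Hist1, Hist2h4 was read at 1.24, 1.73 and 3.78 TPM. Hist4h4, the lone gene of its cluster, was read at 0.36, 0.76 and 0.78 TPM in the gene table and averaged 2.85 TPM in the second quantification. Only 0.0706% of its 31-mers occur in another member and 11.9% in any other gene.

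The 18 H2B genes summed to 24.6 ± 8.26 TPM (SD, n = 3). The highest, Hist1h2bg, was read at 3.49, 4.85 and 8.02 TPM. With Hist1h2bc and Hist1h2be, which encode the same protein, it made up 42 ± 3.07% of H2B. These are gene levels: of Hist1h2be, the coding isoforms held 0.43, 0.61 and 0.14 TPM and a noncoding isoform 2.1, 0.76 and 2.3 TPM. Hist1h2bj at 1.51, 3.2 and 3.17 TPM and Hist1h2bc at 1.38, 3.5 and 2.99 TPM followed, and their means differed by less than their SDs. In the second quantification Hist1h2bc had a mean of 4.18 TPM and Hist1h2bj of 2.35 TPM. The testis-type H2B gene Hist1h2ba had no count.

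The 12 H3 genes gave 17.7 ± 10.1 TPM (SD, n = 3) and encode 3 predicted proteins when each gene is given its longest coding sequence. The 7 genes of 1 group, those of the H3.2 protein, summed to 3.88, 14.74 and 17.3 TPM. The 4 genes of the H3.1 protein, Hist1h3a, Hist1h3g, Hist1h3h and Hist1h3i, summed to 1.72, 8.65 and 5.93 TPM. H3.2 thus stood above H3.1 in all 3 libraries and held 67.2 ± 5.33% of H3, against 30.3 ± 6.07%. The remaining gene, Hist2h3c1, was at 0.34, 0 and 0.41 TPM, all of it on an isoform with a coding part of 408 nt, while the isoform with the longer coding part of 543 nt was at 0. The highest H3 gene was Hist2h3b at 0, 6.56 and 7.84 TPM, which was absent from the counts of replicate 1 and present in the others. Hist1h3e was next at 1.04, 2.99 and 2.97 TPM.

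Each of the 6 H1 genes encodes a protein of its own. Hist1h1c, which encodes the linker histone H1.2, was read at 3.4, 11.11 and 9.57 TPM and made up 51 ± 5.43% of H1. Only 11.4% of its 31-mers occur in another member. Hist1h1a followed at 1.64, 3.54 and 2.32 TPM, and the testis-type Hist1h1t was at 0.42, 0.71 and 0.38 TPM. Hist1h1c was above every other H1 gene in each library.

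Along chromosome 13, the Hist1 genes fall into 4 blocks when split at gaps over 100 kb. The block of 29 of the 54 genes, from Hist1h4h to Hist1h1a (chr13:23531050-23764406), held 52.4 ± 2.98% of the Hist1 sum, close to its share of the genes. It held 15 of the 20 Hist1 genes with at least 1 TPM in all libraries. The block of 18 genes at chr13:21715763-21837530 held 37.2 ± 3.75% and the block of 5 genes at chr13:22035164-22043676 held 10.4 ± 1.16%. The last block holds just the testis-type pair Hist1h2ba and Hist1h2aa and was at 0 in every library.

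**Figure D3:**
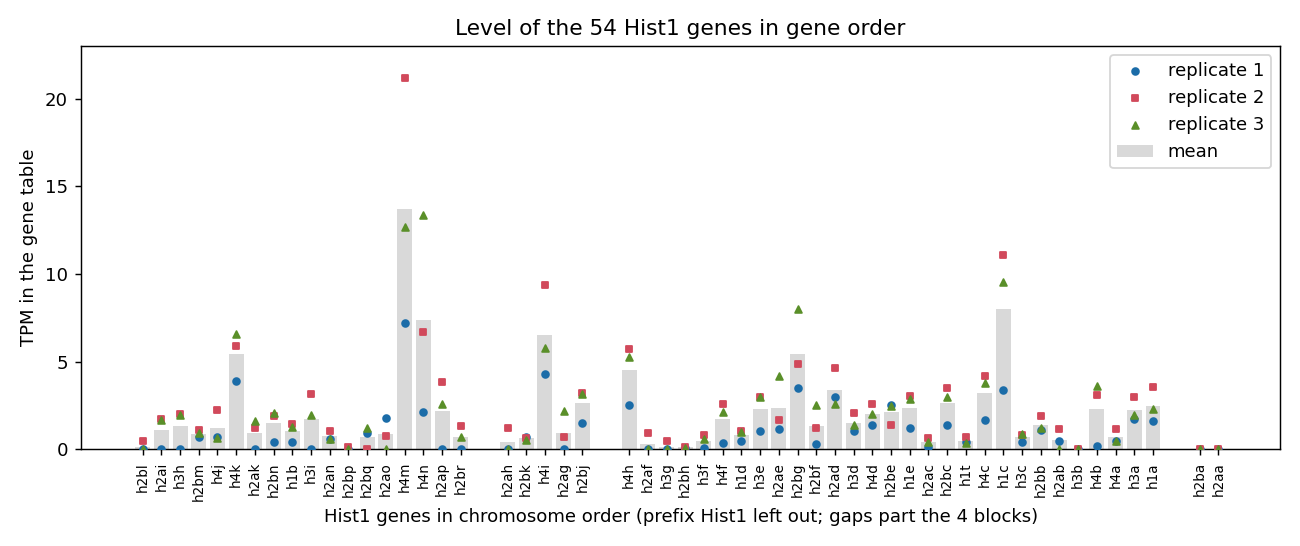
TPM (y axis) of the 54 Hist1 genes in chromosome order (x axis), with grey bars for the mean and 1 coloured point per library. Hist1h4m, Hist1h4n, Hist1h4i, Hist1h4k, Hist1h1c and Hist1h2bg exceed 5 TPM on average, and Hist1h4m and Hist1h4n are neighbours.

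Neighbours that point away from each other could differ in level. There were 13 such pairs with starts at most 1000 nt apart, 12 of an H2A and an H2B gene and 1 of Hist1h2bh and Hist1h3f. In the pair of Hist2h2ac and Hist2h2be, 239 nt apart, the H2A gene averaged 15.4 ± 4.71 TPM and the H2B gene 2.01 ± 1.13 TPM (SD, n = 3). Their models differ in length, at 520 and 2620 nt. In replicates 1, 2 and 3, Hist2h2ac held 43, 165 and 76 expected counts and Hist2h2be 55, 82 and 122. The order of this pair in replicates 1 and 3 thus depends on the division by length. In Hist1h2ae and Hist1h2bg, 176 nt apart, the H2B gene was the higher, at 5.45 ± 2.32 TPM beside 2.36 ± 1.6 TPM.

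The promoters were set beside these levels because histone types are known to differ in their promoter elements. RefSeq promoters (GRCm38.p6) were matched for 61 of the 67 genes, and the 250 bases before each start were searched on both strands. The octamer ATTTGCAT, which binds Oct factors, was present in 13 of 61 (21.3%) against 1.61% of 27025 promoters: 7 of 18 H2A, 6 of 16 H2B and 0 of 27 others. CCAAT was present in 82% against 34.5%, in all 39 matched H1, H2A and H2B promoters but in 3 of 12 H4 promoters. TATAAA was present in 45.9% against 13%. The 13 genes with an octamer had a median level of 0.903 TPM and the 48 without one 1.41 TPM. For CCAAT the median was 1.09 TPM in the 50 genes with it and 2.32 TPM in the 11 without. For TATAAA it was 1.49 TPM in the 28 genes with it and 0.963 TPM in the 33 without. No test was made of these medians, and for the octamer and CCAAT they were not separated from differences between histone types. The 200 bases before the start are given for 4 genes of high level, with matches to the 3 motifs in capitals. They are the H2A genes Hist3h2a (chr11:58954485-58954684, plus strand) and Hist2h2ac (chr3:96220881-96221080, minus strand), the H4 gene Hist1h4m (chr13:21811546-21811745, plus strand) and the H1 gene Hist1h1c (chr13:23738607-23738806, plus strand).
Hist3h2a: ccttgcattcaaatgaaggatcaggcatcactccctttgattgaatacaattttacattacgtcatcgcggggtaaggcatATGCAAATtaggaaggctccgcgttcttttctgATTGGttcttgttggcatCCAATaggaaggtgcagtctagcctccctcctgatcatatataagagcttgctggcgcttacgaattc
Hist2h2ac: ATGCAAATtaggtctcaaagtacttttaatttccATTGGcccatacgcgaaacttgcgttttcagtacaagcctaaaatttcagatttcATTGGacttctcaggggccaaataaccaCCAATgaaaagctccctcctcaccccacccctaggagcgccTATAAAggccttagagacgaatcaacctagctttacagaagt
Hist1h4m: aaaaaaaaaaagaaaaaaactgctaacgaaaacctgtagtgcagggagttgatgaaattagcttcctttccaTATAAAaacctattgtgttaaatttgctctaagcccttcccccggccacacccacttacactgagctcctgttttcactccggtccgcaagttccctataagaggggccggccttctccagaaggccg
Hist1h1c: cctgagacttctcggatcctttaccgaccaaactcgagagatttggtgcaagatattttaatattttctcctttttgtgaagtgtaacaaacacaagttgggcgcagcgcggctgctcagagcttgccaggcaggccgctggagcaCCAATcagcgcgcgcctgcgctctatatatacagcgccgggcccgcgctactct

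In Hist3h2a the octamer starts 119 bases before the start and a CCAAT stands 68 and 86 bases before it, while no TATAAA was found. In Hist2h2ac the octamer starts 200 bases before the start, next to the neighbouring Hist2h2be, and TATAAA 42 bases before it. Hist1h4m held TATAAA alone, 128 bases before its start, and Hist1h1c held CCAAT alone, 54 bases before its start. Only exact matches were searched, so variants nearer the start, such as tataag in Hist1h4m and tatata in Hist1h1c, were not counted.

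Part of the histone signal came from annotated isoforms over 1000 nt, which 18 of the genes have. They held 37.3, 20.9 and 31% of the summed TPM, a mean of 29.7 ± 8.29% (SD, n = 3). Without Hist3h2a the share was 22.5, 16.7 and 19.1%. Among the others with a mean of at least 1 TPM, Hist1h1c (1560 nt) was highest. Hist1h1e was read at 1.23, 3.06 and 2.87 TPM, and the Hist1h2be gene at 2.53, 1.37 and 2.45 TPM, most of it on the noncoding isoform given above. Hist2h2be stood at 1.67, 1.09 and 3.28 TPM, Hist2h3c2 at 1.3, 1.43 and 3.6 TPM, Hist1h4d at 1.42, 2.57 and 2 TPM and Hist1h3d at 1.04, 2.06 and 1.41 TPM. In 23 of the 46 genes with a loop, over 100 nt of annotated sequence follow it. The tables give no read positions, so whether reads lie before or after the loop was not measured.

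Most histone genes deviated in the same direction between libraries. To compare them, TPM was rescaled so that protein-coding genes sum to 1000000 in each library, because their TPM summed to 238925, 166664 and 253110 in replicates 1, 2 and 3. The histone sum was then 406, 1236 and 903, so that replicate 2 stood 3.04-fold above replicate 1. Of the 64 histone genes with a mean above 0, 49 (76.6%) were lowest in replicate 1, against 42.1% of the other protein-coding genes, and 49 (76.6%) were highest in replicate 2, against 32.6%. The median deviation of a histone gene from its own mean was -0.69, 0.77 and 0.10 on the log2(rescaled TPM + 1) scale in replicates 1, 2 and 3. For the other protein-coding genes it was -0.02, -0.04 and 0.05. Among other protein-coding genes with a mean between 0.1 TPM and the highest histone gene's, the 276 of at most 600 nt stood at 0.00, -0.01 and 0.02, and the 301 with 1 exon in every transcript at -0.07, -0.11 and 0.27. The 20 histone genes with at least 10 counts in each library stood at -0.64, 0.74 and 0.07, with 16 lowest in replicate 1 and 14 highest in replicate 2. The 15 with under 20% of their 31-mers in another member stood at -0.62, 0.53 and 0.05, with 9 lowest in replicate 1 and 9 highest in replicate 2.

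**Figure D4:**
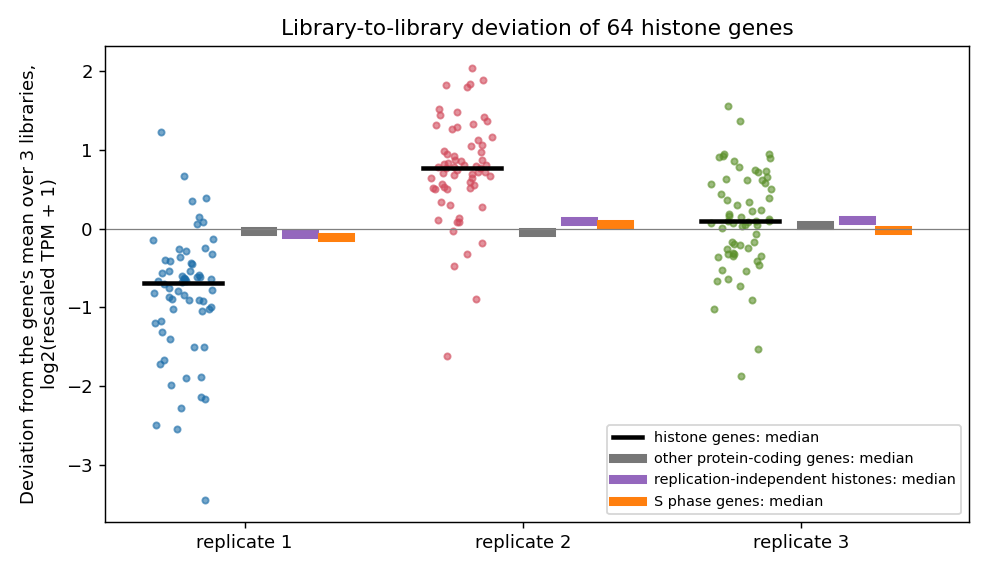
Deviation of each gene from its mean over the 3 libraries, as log2(rescaled TPM + 1) (y axis), by library (x axis), with 1 point per histone gene (64 genes) and bars for medians. The histone median is -0.69 in replicate 1 and 0.77 in replicate 2, while the medians of other protein-coding genes, replication-independent histones and S phase genes lie near 0.

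Of the 3 libraries, replicate 1 had the lowest total count and replicate 2 the highest, and the starting RNA was 1 µg, 250 ng and 500 ng. The effective length of the 312 nt Hist1h4k was 117 nt in replicate 1 and 90.6 and 87.9 nt in replicates 2 and 3. The part of these differences in the histone pattern was not tested. Lower counts from fewer cells in S phase and from less histone RNA per cell cannot be told apart in bulk RNA. The ratio of replicate 2 to replicate 1 was 3.56-fold with TMM scaling and 3.65-fold with DESeq2 size factors. It was smaller without such scaling, at 1.68-fold in the second quantification's TPM and 1.59-fold in counts per 1000000 annotated counts. On plain TPM replicate 2 stood 2.12-fold above replicate 1 but 0.902-fold relative to replicate 3, whereas on the rescaled values it stood 1.37-fold above replicate 3. Which of replicates 2 and 3 was the higher thus depends on the scaling, and replicate 1 was the lowest under each of these. The 5 genes that were lowest in replicate 2 were Hist1h2be, Hist1h2bq, Hist2h2be, Hist2h3c1 and Hist3h2a, named after their values were seen. All have an annotated isoform over 1000 nt, as do 18 members in all. The median deviation of those 18 was -0.61, 0.56 and 0.14 in replicates 1, 2 and 3. That of the other 49 members was -0.71, 0.80 and 0.07. All 31-mers of Hist1h2bq occur in another member, and with Hist1h2br, which encodes the same protein, it summed to 0.92, 1.36 and 1.97 TPM, lowest in replicate 1. None of that sum lay on coding isoforms, which were at 0 for both genes in each library of the gene table's quantification.

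The sums of the cell cycle and histone supply lists varied less between libraries than the histone sum. The S phase list summed to 736, 665 and 626 rescaled TPM in replicates 1, 2 and 3, with replicate 1 highest. Of its 24 genes, 19 had at least 1 TPM in all libraries. They were led by the thymidine kinase gene Tk1 (32.2 ± 11.8 TPM), the sliding clamp gene Pcna (29.2 ± 5.36 TPM) and the kinase gene Cdk2 (9.46 ± 3.11 TPM; SD, n = 3 each). The list of histone gene transcription and 3′ end processing summed to 1225, 1350 and 1306 rescaled TPM, and 14 of its 16 genes passed 1 TPM. Its highest genes were Srrt, which links capped RNA to its processing, at 109 ± 19.9 TPM, Xrn2, a nuclear exonuclease gene, at 54.7 ± 14.3 TPM, and Sympk, a scaffold of the cleavage complex, at 20.9 ± 4.38 TPM. The loop-binding factor Slbp stood at 17.84, 10.35 and 15.34 TPM and Npat at 5.28, 2.57 and 4.82 TPM, both lowest in replicate 2 on this plain TPM scale, as was the protein-coding total. Histone chaperone genes summed to 2314, 2108 and 2017 rescaled TPM, and 13 of 14 passed 1 TPM. They were led by Atrx, which deposits H3.3 with Daxx, at 231 ± 54.5 TPM. Ubn1 and Cabin1, subunits of the H3.3 chaperone complex of Hira, stood at 42.6 ± 10.8 TPM and 33.7 ± 4.68 TPM.

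The replication-independent histone genes stood above the 67 members together. The members summed to 96.98, 205.98 and 228.44 TPM and the 12 listed replication-independent genes to 487.74, 390.79 and 515.24 TPM. The log2 ratio of replication-independent genes over members was 2.33, 0.92 and 1.17, a mean of 1.48 ± 0.75 (SD, n = 3), positive in 3 of 3 libraries. An exact two-sided sign-flip test of 3 libraries cannot go below p = 0.25, so no test is given. H3f3b, which encodes H3.3, was its highest gene at 264.27, 261.44 and 251.14 TPM, which is 54.2%, 66.9% and 48.7% of the list's sum. Cenpa, the centromeric H3 variant, was at 118.59, 53.48 and 149.05 TPM and H2afy, which encodes macroH2A1, at 52.69, 47.84 and 64.46 TPM. H3f3b alone was above the whole replication-dependent sum in each library.

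The 2 deposited quantifications gave similar levels for most members but not for all. Means on the log2(TPM + 1) scale correlated with Pearson's r = 0.94 across 67 genes, given as a description since both use the same reads. Of the 64 genes above 0 in both, 41 agreed within 1.5-fold, 7 were over 2-fold higher in the second and 1 was over 2-fold lower. Hist2h2ab, an H2A gene whose model ends at the stop codon, averaged 2.11 ± 1.05 TPM in the first and 5.94 ± 2.95 TPM in the second (SD, n = 3). Of the 67 genes, 39 share at least 50% of their 31-mers with another member and 9 share at least 90%, and 24 overlap another annotated gene. The intervals deposited with the gene table were apart in at least 1 pair of libraries for 26 members (38.8%), close to 36.2% of all protein-coding genes.

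**Figure D5:**
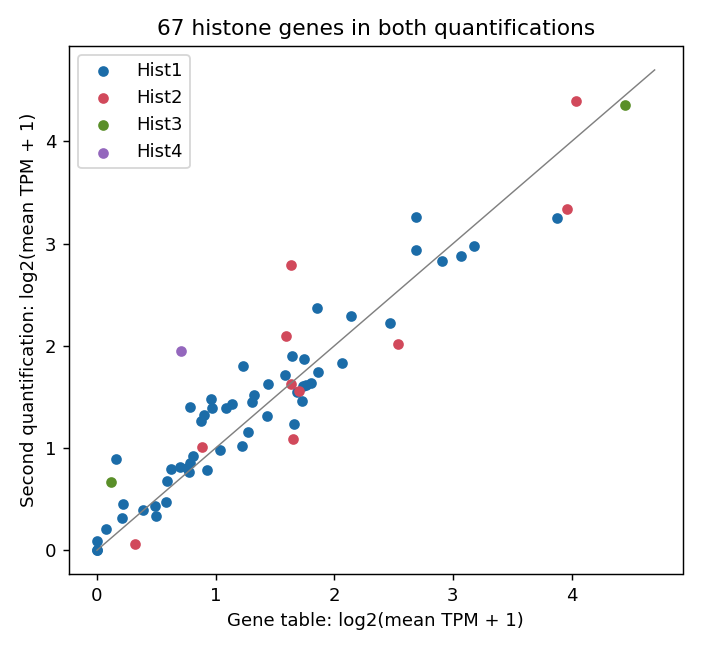
Mean level of each of the 67 histone genes over the 3 libraries as log2(mean TPM + 1), in the gene table (x axis) and in the second quantification (y axis), coloured by cluster, with a grey line of equality. Most genes lie near the line, and Hist4h4 (0.633 and 2.85 TPM) and Hist2h2ab (2.11 and 5.94 TPM) lie above it.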

How the data were processed

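RNA from 3 libraries was analysed. Per the deposited file headers, a first quantification gives each gene and isoform an expected count, a TPM, the bounds of an interval on TPM (a TPM signal range deposited by the authors) and an isoform percent. A second deposited quantification gives estimated counts and TPM per transcript. No label or file header names the aligner, the counting tools or the strand setting. The text deposited with the tables names assembly mm10 and GENCODE M21.

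The members and gene lists were chosen with earlier results of these data known. Genes named with values were the 12 of highest mean TPM, the highest 2 of each histone type, detected Hist3 and Hist4 members, members with an isoform over 1000 nt and a mean of at least 1 TPM, and the highest 3 of each list. A few others are named to account for all members. TPM was summed by type and cluster, and the pseudocount on the log2 scale was 1. Stem-loops and 31-mers were read from GENCODE M21 transcripts, and promoters from RefSeq (GRCm38.p6). Identical proteins were grouped by translating the annotated coding sequences. Python 3.11.15, pandas 2.3.3, edgeR 4.0.16 (TMM factors on rounded expected counts) and DESeq2 1.42.0 (size factors) were used, and the scaling and loop search were tested on simulated data. With 1 group, values are means with SD over 3 libraries and no difference between conditions was tested. Gene names follow GENCODE M21, and genes of few counts are limited by counting error and by reads shared between copies.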

Additional observations from a re-analysis of the deposited data

How the results depend on the processing

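Of 101 recomputed values, 78 stayed within the replicate SD (or within 1.5 times, for counts) and 23 moved. The causes of the moves were not tested beyond what each setting changes by construction. Leaving out 1 of 3 libraries cannot shift a mean by its SD, so for means those settings fell among the 78 in advance. Requiring 2 TPM left 11 detected members. The summed level was 848 after rescaling to protein-coding TPM and 3570 per kb with DESeq2 size factors, in other units. With a pseudocount of 0.1 the median log2 level was 0.43. With counts in place of TPM, which weights long models, Hist1 held 49.4%, Hist2 16.6%, Hist3 32.6%, Hist4 1.36%, H1 18.6%, H2A 44.1%, H4 15.3% and isoforms over 1000 nt 70.6%, and the log2 ratio of replication-independent genes over members was 2.49. It was 0.57 as a difference of medians. In the second quantification Hist4 held 1.64%, H2B 18.9% and H4 25.6%. Without Hist3h2a, Hist1 held 70.4%, Hist3 0.0902%, Hist4 0.416%, H2A 29.8%, H4 33.2% and isoforms over 1000 nt 19.4%, the last chosen after seeing the data. Leaving out 1 library at a time gave 27 to 39 detected members, a sum of 151 to 217 TPM, a median log2 level of 1.02 to 1.48 and a log2 ratio of 1.05 to 1.75. No paired analysis was possible because the study has 1 group. Depth limits short models most: in replicate 1, 3 counts on 0.25 kb correspond to 0.883 TPM.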
